A study of Homo sapiens with 12 samples.

Results

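The genes described here are 9 members of the p53 pathway and the CDK inhibitors: MDM2, MDM4, CDKN1A, CDKN1B, GADD45A, GADD45B, PLK2, PLK3 and SESN1. They were chosen by gene symbol, and all 9 were among the 18132 genes measured. RNA came from monolayers of A549, a human lung adenocarcinoma line, on 12 Affymetrix PrimeView arrays in 4 groups of 3. The groups were a 2 h heat shock followed by 4 h of wounding, the heat shock alone, the wounding alone, and untreated control. All grew on uncoated plastic in RPMI medium with serum, and no group carried a genetic change beyond those of the line. Neither the collection time after heat shock alone nor the use of separate cultures for the 3 arrays is stated. The p-values therefore rest on a spread that may be technical. In bulk RNA a lower level per cell and fewer cells that express a gene cannot be told apart.

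The transcription factor p53 is stabilised by DNA damage and other stress and then switches on genes that halt the cell cycle, repair DNA or start apoptosis. MDM2 and MDM4 hold it in check, MDM2 as the ubiquitin ligase that marks p53 for destruction and as a p53 target itself, which closes a feedback loop. CDKN1A encodes p21 and CDKN1B p27, proteins that bind and inhibit cyclin-CDK complexes, and p21 is the classic p53 target. GADD45A, GADD45B, PLK2, PLK3 and SESN1 are stress-response genes, of which GADD45A, PLK2, PLK3 and SESN1 are known p53 targets. A549 is known to keep wild-type p53 and to have lost the CDKN2A locus.

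Levels are log2 values made by the authors with RMA, and differences are log2 differences of group means, first group minus second. Where a gene had several probe sets, the one brightest on average was used. A gene was called, and is said here to have risen or fallen, at a limma adjusted p under 0.05 over all 18132 genes. Levels carry SD (n = 3) and differences SE after ±. A probe set's level was set against that of other genes only to mark low signal.

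Array medians lay between 5.3 and 5.32. Replicate 2 of the doubly treated group stood apart, with an interquartile range of 3.98 against 4.13 to 4.24 on the other arrays. Epithelial markers were present, EPCAM at 9.25, 9.24, 9.13 and 9.13 and KRT18 at 13.71, 13.77, 13.79 and 13.83 after both treatments, heat shock, wounding and in control. Of the 7 epithelial markers 1, CDH1, fell after both treatments (-0.26 ± 0.07, adjusted p = 0.0149). The surfactant genes SFTPA1 and SFTPD, markers of alveolar type II cells, read 2.26 to 2.38 and 3.36 to 3.49 by group mean. SFTPB read higher, at 5.26 to 5.40, as did SFTPC, at 5.97 to 6.30. In the same list LAMP3 read 2.66 to 3.04, NKX2-1 4.78 to 5.19 and ABCA3 7.37 to 7.65. Of the same list of 7, NKX2-1 rose (0.41 ± 0.10, adjusted p = 0.0107) and ABCA3 fell (-0.27 ± 0.08, adjusted p = 0.0349) after both treatments, and the part of these shifts in the results was not tested. In control, the 15 measured markers of fibroblasts, endothelium and leukocytes had a median level of 3.95 and an upper quartile of 4.66. The highest of them was CD68, at 6.84. None of the 15 was called after both treatments against control, while COL3A1 was lower after heat shock (-0.35 ± 0.11, adjusted p = 0.0495).

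Promoter windows from RefSeq (GRCh38.p14, 250 bases before to 50 after a start site) were at hand for 8 of the 9 genes. The first pair of windows is shown for the p53 elements of MDM2 and SESN1, whose levels did not pass in any comparison. The windows of CDKN1A and PLK3 belong to the pair of genes that moved most alike, that of GADD45B to a gene that rose after wounding, and that of PLK2 to a gene that fell. Capitals mark matches to the motifs described after the sequences, and all are written 5′ to 3′ on the strand of the gene.
MDM2, inner start, chr12:68808774-68809073, plus strand: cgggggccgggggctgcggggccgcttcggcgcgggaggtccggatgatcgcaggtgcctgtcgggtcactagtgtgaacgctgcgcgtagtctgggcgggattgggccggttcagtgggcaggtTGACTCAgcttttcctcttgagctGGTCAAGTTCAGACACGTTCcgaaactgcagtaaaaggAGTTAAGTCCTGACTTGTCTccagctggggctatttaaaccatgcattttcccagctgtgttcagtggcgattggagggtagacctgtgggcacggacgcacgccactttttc
SESN1, chr6:109008939-109009238, minus strand: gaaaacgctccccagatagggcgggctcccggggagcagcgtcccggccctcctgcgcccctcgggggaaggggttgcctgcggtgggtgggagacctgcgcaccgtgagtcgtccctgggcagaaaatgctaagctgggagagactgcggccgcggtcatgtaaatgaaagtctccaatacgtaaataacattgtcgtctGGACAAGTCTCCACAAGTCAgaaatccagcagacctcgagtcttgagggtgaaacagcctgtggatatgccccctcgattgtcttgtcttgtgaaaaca
CDKN1A, chr6:36678464-36678763, plus strand: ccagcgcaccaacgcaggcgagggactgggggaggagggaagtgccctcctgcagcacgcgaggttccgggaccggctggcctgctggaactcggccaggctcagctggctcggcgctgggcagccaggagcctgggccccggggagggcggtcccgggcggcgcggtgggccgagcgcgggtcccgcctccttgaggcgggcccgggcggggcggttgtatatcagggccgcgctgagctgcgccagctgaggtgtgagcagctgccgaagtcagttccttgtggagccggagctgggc
PLK3, chr1:44800127-44800426, plus strand: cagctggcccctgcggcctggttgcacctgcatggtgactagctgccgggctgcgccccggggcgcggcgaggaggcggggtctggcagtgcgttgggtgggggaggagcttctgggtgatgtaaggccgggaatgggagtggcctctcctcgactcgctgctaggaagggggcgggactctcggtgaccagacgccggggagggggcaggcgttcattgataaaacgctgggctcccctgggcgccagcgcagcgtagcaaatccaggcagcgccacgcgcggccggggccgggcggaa
GADD45B, chr19:2475877-2476176, plus strand: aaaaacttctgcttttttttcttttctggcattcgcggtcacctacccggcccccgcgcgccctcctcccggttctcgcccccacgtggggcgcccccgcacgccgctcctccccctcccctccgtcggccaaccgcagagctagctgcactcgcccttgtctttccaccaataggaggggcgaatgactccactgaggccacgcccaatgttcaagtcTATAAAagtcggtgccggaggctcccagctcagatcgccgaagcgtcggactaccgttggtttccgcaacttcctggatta
PLK2, chr5:58460037-58460336, minus strand: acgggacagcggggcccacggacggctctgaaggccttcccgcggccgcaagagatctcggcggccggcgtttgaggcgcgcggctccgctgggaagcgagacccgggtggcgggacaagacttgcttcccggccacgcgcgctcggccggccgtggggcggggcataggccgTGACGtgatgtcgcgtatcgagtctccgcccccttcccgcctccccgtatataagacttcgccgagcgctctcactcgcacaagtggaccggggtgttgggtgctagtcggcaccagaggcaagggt

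The p53 element was searched as adjoining consensus half-sites of 10 bases each with at most 3 mismatches in 20 bases, a match that 5.2% of all 35116 RefSeq windows hold. The MDM2 window at its inner start, known to lie in the first intron, held 2 such matches, 1 of them with 2 mismatches, a closeness that 0.649% of all windows reach. It also held TGACTCA, a match to the AP-1 motif TGANTCA (7.71% of windows). Of the SESN1 windows, the printed one held 1 p53 match with 3 mismatches and the others none. The CDKN1B window, which is not printed, also held 1 with 3 mismatches, from base -231 to -212. MDM2 and SESN1 had several windows each, and those of MDM2 away from its inner start held no p53 match. The shares are per window, so they do not give the share of genes with a match. The GADD45B window held TATAAA (11.5% of windows) from base -31 to -26, and the PLK2 window held TGACG (24.6%), the first part of the cAMP response element TGACGTCA (1.85%). The CDKN1A and PLK3 windows held no match to these motifs, to the heat shock element spelled GAANNTTC (6.77%) or TTCNNGAA (7.74%), or to the CArG box of serum response factor (1.29%). Both strands were searched. Elements farther than 250 bases before a start site lay outside the windows and were not searched. A window without a match therefore does not show that the gene lacks the element. These matches describe letters in the windows, and no binding was measured.

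After heat shock and wounding together, 5 of the 9 genes rose against control (CDKN1A, PLK3, GADD45B, GADD45A and MDM4) and 2 fell (PLK2 and CDKN1B), while MDM2 and SESN1 did not pass. Of all genes, 23.1% were called in that comparison, 8.66% higher and 14.4% lower. Heat shock alone raised 3 of the 9, CDKN1A, PLK3 and MDM4, where 12.9% of all genes were called. Wounding alone raised 1, GADD45B, where 3.57% were called. The largest change of a member was 1.83-fold, and none reached 2-fold in any of the 6 comparisons between groups. The members' median difference was 0.32 after both treatments, 0.10 after heat shock and 0.00 after wounding, against -0.01, -0.03 and -0.03 over all genes. These comparisons share the control arrays. The values of a member did not overlap with control for 8 members after both treatments, 6 after heat shock and 5 after wounding, against 37.4%, 31.3% and 21.9% of all genes.

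Both treatments set against wounding alone raised 3 members and lowered 2, where 6.31% of all genes rose and 8.6% fell, and 7 members did not overlap (32.1% of all genes). Against heat shock alone, both treatments raised 2 members and lowered 1, where 2.71% of all genes rose and 1.58% fell, and 5 members did not overlap (19.9%). Heat shock against wounding raised 1 and lowered 1, where 4.51% of all genes rose and 6.01% fell, and 4 members did not overlap (28.3%).

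**Figure D1:**
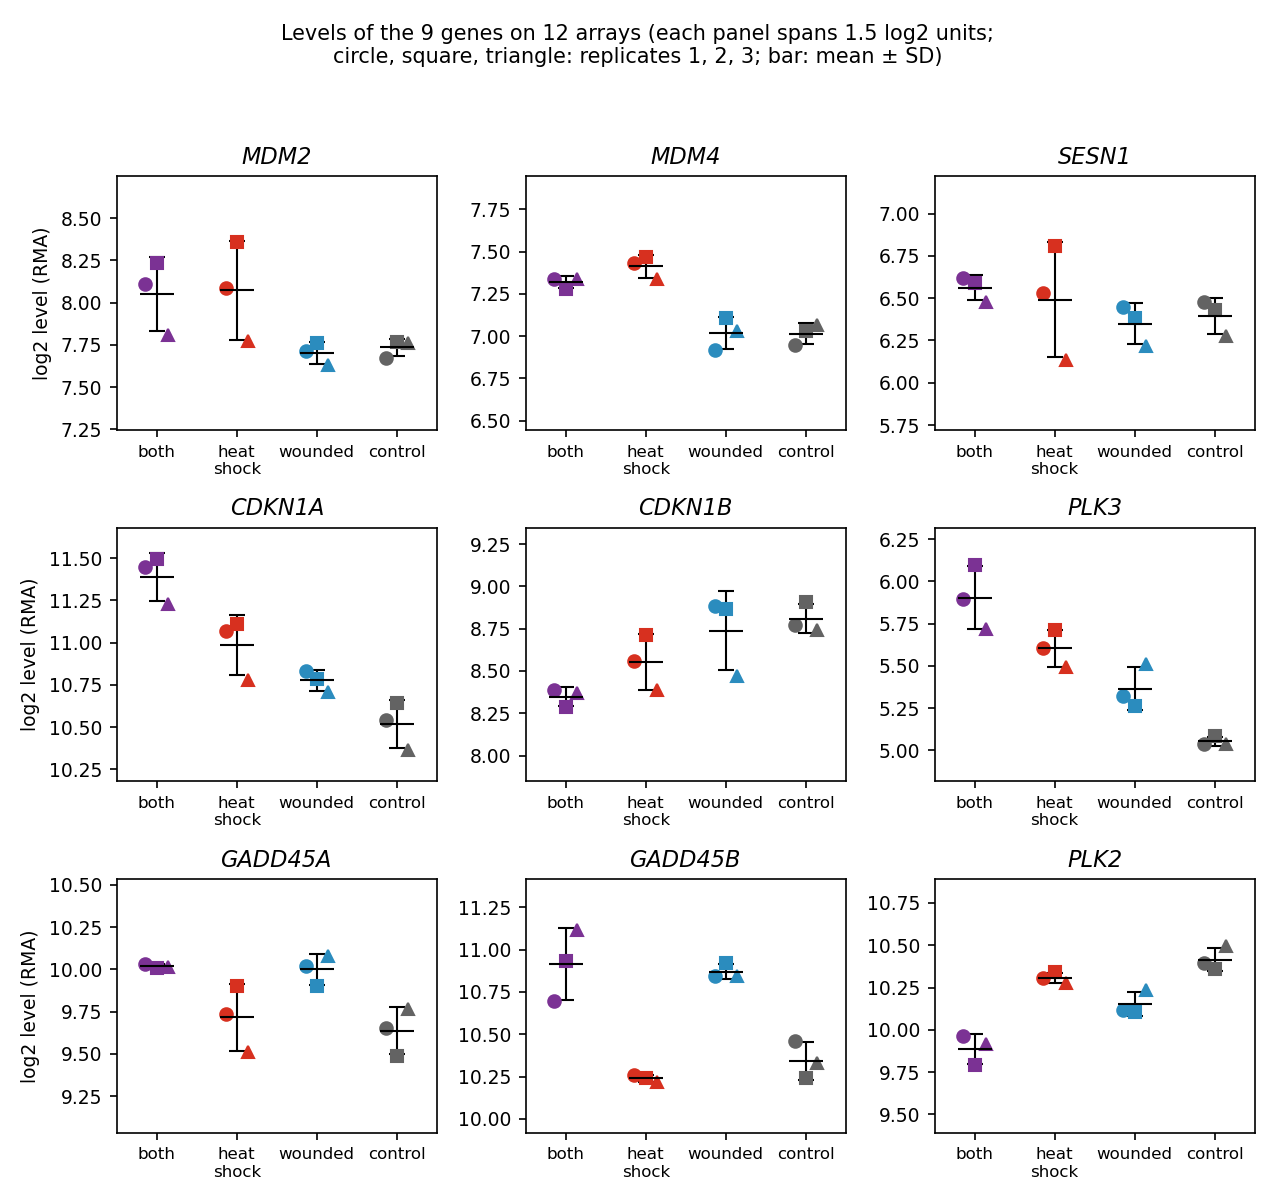
Log2 RMA level (y axis, log scale; each panel spans the same 1.5 log2 units) of the 9 genes in the heat shocked and wounded (both), heat shocked, wounded and control groups (x axis). Points are arrays and bars are mean ± SD, n = 3; for CDKN1A and PLK3 all 3 arrays of the doubly treated group lie above all control arrays, and for PLK2 and CDKN1B all lie under them.

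Among the regulators of p53 itself, MDM4 rose with heat. MDM4 encodes a relative of MDM2 that binds p53 and blocks its activity. Its levels were 7.34, 7.28 and 7.34 after both treatments and 7.43, 7.47 and 7.34 after heat shock, against 6.92, 7.11 and 7.03 after wounding and 6.95, 7.03 and 7.07 in control. Every heated array lay above every array that was not heated. MDM4 was 0.31 ± 0.07 higher after both treatments than in control (limma adjusted p = 0.00572) and 0.40 ± 0.07 higher after heat shock than in control (adjusted p = 0.00223). Heat shock also exceeded wounding by 0.40 ± 0.07 (adjusted p = 0.00259), and both treatments exceeded wounding by 0.30 ± 0.07 (adjusted p = 0.0105). Without wounded replicate 1 the last difference was 0.25 (adjusted p = 0.0564), and with the mean of all probe sets it was 0.16 (adjusted p = 0.0856). The rise was called for 1 of the 6 probe sets of MDM4. The others ranged from -0.10 to 0.30 after heat shock and from -0.11 to 0.21 after both treatments, and the mean of all probe sets did not pass after both treatments (0.12, adjusted p = 0.163).

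MDM2 had 8.11, 8.24 and 7.81 after both treatments and 8.08, 8.36 and 7.77 after heat shock, against 7.71, 7.76 and 7.63 after wounding and 7.68, 7.77 and 7.76 in control. The heated arrays all lay above the control arrays, by a margin that was small for replicate 3 of each heated group. The difference from control was 0.32 ± 0.13 after both treatments (adjusted p = 0.116), 0.34 ± 0.13 after heat shock (adjusted p = 0.13) and -0.03 ± 0.13 after wounding (adjusted p = 0.96). None passed. Without heat shock replicate 3 the heat shock difference was 0.49 (adjusted p = 0.0238). Without replicate 3 of the doubly treated group the difference of that group from control was 0.44 (adjusted p = 0.0352). Each was the only 1 of the 12 omissions that passed in its comparison. Over all omissions the heat shock difference ran from 0.19 to 0.49 (adjusted p up to 0.407). The difference after both treatments ran from 0.22 to 0.44 (adjusted p up to 0.33). The 11 probe sets of MDM2 were all above 0 after heat shock (0.15 to 0.68) and after both treatments (0.13 to 0.62), with 1 of the 11 called in each case. The called probe set was the same in both cases and read 4.32 in control. That lies under 4.66, the upper quartile in control of the fibroblast, endothelium and leukocyte markers, so the call rests on low signal. After wounding 9 of the 11 were above 0 too (-0.24 to 0.39), with 0 called. Averaged over its probe sets, MDM2 passed in both comparisons (0.42, adjusted p = 0.0422 after heat shock, and 0.38, adjusted p = 0.043 after both treatments). The average includes several probe sets of low signal, down to 2.77 in control.

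SESN1, a sestrin that restrains mTORC1 signalling under stress, had levels of 6.48 to 6.62 after both treatments, 6.13 to 6.81 after heat shock, 6.22 to 6.45 after wounding and 6.28 to 6.48 in control. The groups overlapped in every comparison except both treatments against wounding. Differences from control were 0.17 ± 0.14, 0.10 ± 0.14 and -0.05 ± 0.14, none called (adjusted p = 0.438, 0.748 and 0.938). The second probe set of SESN1 differed in sign after both treatments (-0.12) and after heat shock (-0.05), and was not called. The interval of the first, -0.13 to 0.46, covers changes of the size seen for MDM4.

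**Figure D2:**
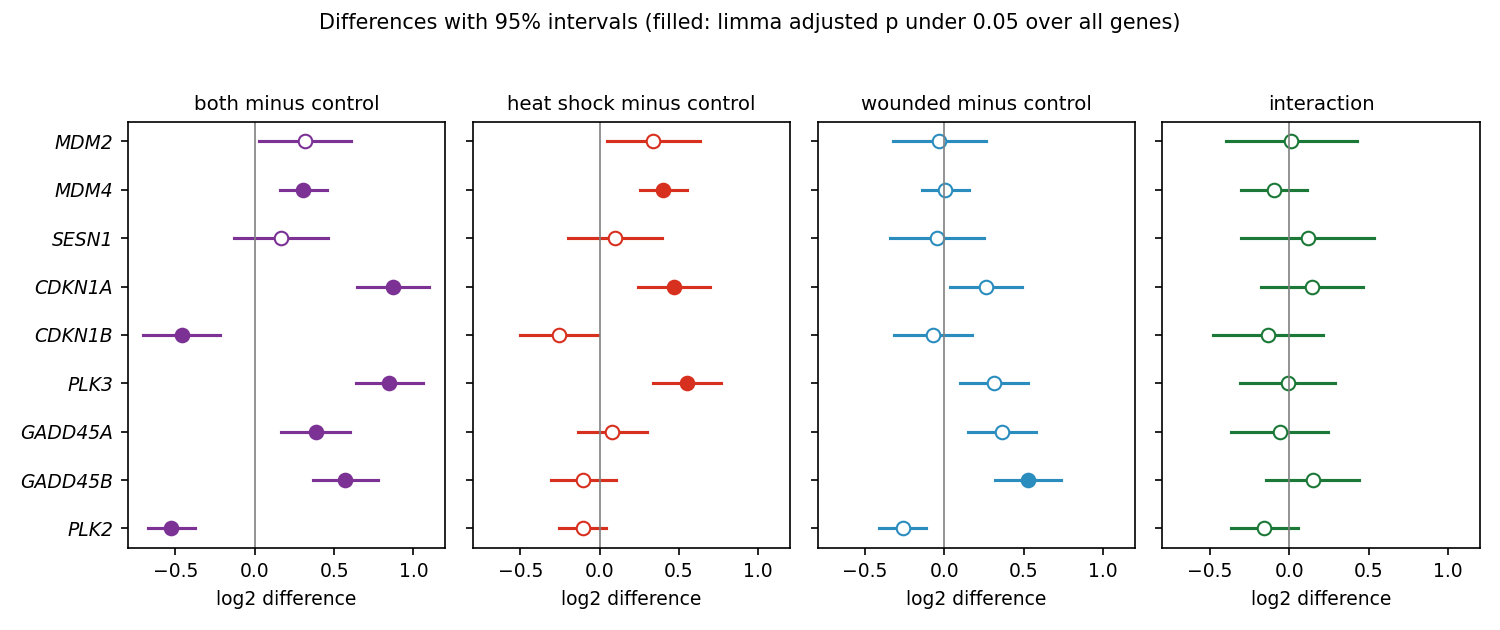
Log2 difference from control (x axis) of each gene (y axis) after both treatments, heat shock and wounding, and the interaction, as points with 95% intervals from limma; filled points passed. CDKN1A and PLK3 lie farthest to the right after both treatments, at 0.87 and 0.85, and every interaction interval includes 0.

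Of the CDK inhibitors, CDKN1A rose and CDKN1B fell. CDKN1A had 11.44, 11.50 and 11.23 after both treatments and 11.07, 11.11 and 10.78 after heat shock, against 10.83, 10.78 and 10.71 after wounding and 10.54, 10.64 and 10.36 in control. The doubly treated arrays lay above all others and the control arrays under all others, while the heat shocked and wounded groups overlapped. CDKN1A was 0.87 ± 0.10 higher after both treatments than in control (1.83-fold, adjusted p = 6.95e-05). Heat shock alone gave 0.47 ± 0.10 (adjusted p = 0.0109) and wounding alone 0.26 ± 0.10, which did not pass (adjusted p = 0.286, and 0.0424 with a block by a code in the sample descriptions). Without heat shock replicate 1 the heat shock difference was 0.43 (adjusted p = 0.0509).

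The second probe set of CDKN1A gave 0.92 after both treatments and 0.66 after heat shock, each called over all probe sets. Both treatments exceeded wounding alone by 0.61 ± 0.10 (adjusted p = 0.00212), where 14.9% of all genes were called and 5 of the 9 members were. They exceeded heat shock alone by 0.40 ± 0.10 (adjusted p = 0.0497), where 4.3% of all genes and 3 of the 9 members were called. That last call stood at the threshold: it was lost when any 1 of 10 of the 12 arrays was left out, with adjusted p from 0.0563 to 0.164. Averaging the probe sets gave 0.34 (adjusted p = 0.077) and centring each array on its median gave an adjusted p of 0.0619.

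CDKN1B had 8.39, 8.29 and 8.37 after both treatments and 8.56, 8.72 and 8.39 after heat shock, against 8.88, 8.86 and 8.47 after wounding and 8.77, 8.91 and 8.74 in control. All doubly treated arrays lay under all wounded and control arrays. The fall against control was -0.46 ± 0.11 (0.726-fold, adjusted p = 0.0102), and the second probe set fell by 0.60. Heat shock alone differed by -0.26 ± 0.11 (adjusted p = 0.176) and wounding alone by -0.07 ± 0.11 (adjusted p = 0.874). Against wounding, both treatments were lower by -0.39 ± 0.11 (adjusted p = 0.0361), a call lost without any 1 of 7 arrays (adjusted p from 0.05 to 0.143) and with cyclic loess scaling (-0.33, adjusted p = 0.0638).

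The other CDK inhibitors measured were CDKN1C (p57), CDKN2A, CDKN2B and CDKN2D, and 0 of these 4 passed in any comparison. CDKN1C averaged 4.88 ± 0.18 after both treatments, 4.91 ± 0.31 after heat shock, 4.55 ± 0.11 after wounding and 4.45 ± 0.29 in control. The largest of its differences from control was 0.47 ± 0.16 after heat shock (limma unadjusted p = 0.0142, adjusted p = 0.086), and those groups overlapped. In control CDKN1C and CDKN2B read under 4.66, the upper quartile there of the fibroblast, endothelium and leukocyte markers, so their values rest on low signal. CDKN2A, the locus lost in A549, read 4.61, 4.58, 4.59 and 4.67 in the same order of groups, CDKN2B 2.96 to 2.98 in the treated groups and 2.90 in control, and CDKN2D between 5.97 and 6.25 in all groups.

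PLK3, a polo-like kinase activated by DNA damage and other stress, followed the same course as CDKN1A. It had 5.89, 6.10 and 5.72 after both treatments and 5.60, 5.71 and 5.50 after heat shock, against 5.32, 5.26 and 5.51 after wounding and 5.04, 5.09 and 5.04 in control. The doubly treated arrays were the highest and the control arrays the lowest, with heat shock and wounding overlapping between them. PLK3 was 0.85 ± 0.10 higher after both treatments than in control (1.80-fold, adjusted p = 5.4e-05) and 0.55 ± 0.10 higher after heat shock (1.46-fold, adjusted p = 0.00309). Wounding gave 0.31 ± 0.10 (adjusted p = 0.139). Both treatments exceeded wounding by 0.54 ± 0.10 (adjusted p = 0.00327). They exceeded heat shock by 0.30 ± 0.10, which did not pass (adjusted p = 0.125). Leaving out each of the 12 arrays in turn gave adjusted p from 0.0444, without replicate 3 of the doubly treated group, to 0.361. PLK3 had 1 probe set, and its mean of 5.48 over the 12 arrays lay under the median of 6.03 over all genes. Across the 12 arrays CDKN1A and PLK3 correlated at r = 0.95, the highest r among the 36 pairs of members, over arrays that share the group differences.

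PLK2, a polo-like kinase of centriole duplication and stress signalling, moved the opposite way. It had 9.96, 9.79 and 9.91 after both treatments, 10.31, 10.34 and 10.28 after heat shock, 10.11, 10.11 and 10.24 after wounding, and 10.40, 10.36 and 10.49 in control. No pair of groups overlapped: doubly treated arrays were lowest, then wounded, then heat shocked, then control. The fall after both treatments was -0.53 ± 0.07 (0.694-fold, adjusted p = 0.000131), and 3 of its 4 probe sets were called lower, with all 4 between -0.58 and -0.41. Wounding alone differed by -0.26 ± 0.07 (adjusted p = 0.0578) and heat shock alone by -0.11 ± 0.07 (adjusted p = 0.381). Without wounded replicate 3, or without replicate 2 of the doubly treated group, wounding passed (-0.31, adjusted p = 0.0491, and -0.26, adjusted p = 0.0398). Over all 12 omissions the wounding difference ran from -0.31 to -0.22, with adjusted p up to 0.227.

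Set against heat shock alone, PLK2 after both treatments differed by -0.42 ± 0.07 (adjusted p = 0.00384). Of its 4 probe sets 1 was called there, with all 4 between -0.51 and -0.42. Against wounding alone the difference was -0.26 ± 0.07 (adjusted p = 0.022), again with 1 of the 4 called (-0.38 to -0.26). The call against wounding was lost with cyclic loess scaling (-0.22, adjusted p = 0.0519) and with the mean of all probe sets (-0.30, adjusted p = 0.128). It was also lost without wounded replicate 1, wounded replicate 3 or replicate 2 of the doubly treated group, with adjusted p from 0.0504 to 0.0804.

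**Figure D3:**
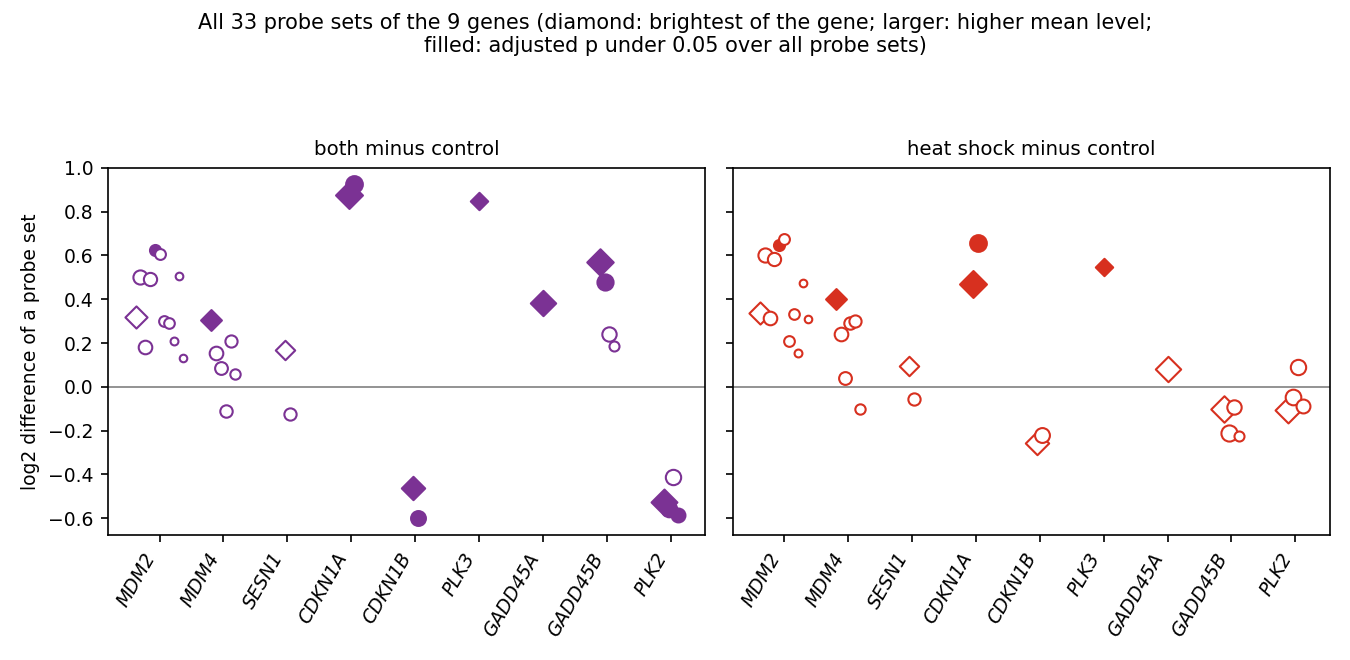
Log2 difference from control (y axis) of each of the 33 probe sets of the 9 genes (x axis), after both treatments and after heat shock; diamonds are the probe set with the highest mean, larger symbols have a higher mean level, and filled symbols passed over all probe sets. The probe sets of CDKN1A, CDKN1B and PLK2 keep to 1 side of 0 after both treatments, while MDM4 has 1 called of 6.

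GADD45A and GADD45B, small acidic proteins that bind PCNA and p21 and activate the kinase MAP3K4, were highest in wounded monolayers. GADD45B had 10.69, 10.93 and 11.12 after both treatments and 10.85, 10.92 and 10.84 after wounding, against 10.26, 10.24 and 10.22 after heat shock and 10.46, 10.24 and 10.33 in control. Every wounded array lay above every array that was not wounded. GADD45B was 0.57 ± 0.10 higher after both treatments than in control (1.49-fold, adjusted p = 0.000882) and 0.53 ± 0.10 higher after wounding (1.44-fold, adjusted p = 0.00801). Heat shock alone differed by -0.10 ± 0.10 (adjusted p = 0.585).

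Both treatments exceeded heat shock alone by 0.67 ± 0.10 for GADD45B (1.59-fold, adjusted p = 0.00146), and did not pass against wounding alone (0.04 ± 0.10, interval -0.16 to 0.25). Heat shock set directly against wounding differed by -0.63 ± 0.10 (adjusted p = 0.00111), in a comparison where 10.5% of all genes and 2 of the 9 members were called. GADD45B and MDM4 thus differed between the single treatments in opposite directions. Since the collection time after heat shock alone is not stated, time and treatment cannot be told apart for any gene in this comparison. Of the 4 probe sets of GADD45B, 2 were called after both treatments (0.57 and 0.48) and 1 after wounding, and the mean of all its probe sets did not pass after wounding (0.25, adjusted p = 0.124).

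GADD45A had 10.03, 10.01 and 10.02 after both treatments and 10.02, 9.90 and 10.08 after wounding, against 9.73, 9.90 and 9.51 after heat shock and 9.65, 9.49 and 9.76 in control. The difference from control passed after both treatments (0.38 ± 0.10, 1.30-fold, adjusted p = 0.0139) and not after wounding (0.36 ± 0.10, adjusted p = 0.0759) or heat shock (0.08 ± 0.10, adjusted p = 0.702). The call was lost without control replicate 2 (0.31, adjusted p = 0.066). The wounding difference passed without heat shock replicate 2 or 3, which enter through the estimate of spread (adjusted p = 0.0482 and 0.0336). Over all 12 omissions its adjusted p ran from 0.0336 to 0.28. Over the 12 arrays GADD45A and GADD45B correlated at r = 0.79.

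The interaction asked whether heat shock changed these genes by a different amount in wounded monolayers than in monolayers that were not wounded. Since the collection time after heat shock alone is not stated, a difference in time after heat cannot be told apart from wounding here. The same holds for both treatments against heat shock. None of the 9 passed, where 1 of all genes (0.00552%) did. By limma, 0 had an unadjusted p under 0.05, and the lowest was 0.13. The interactions ranged from -0.16 (PLK2) to 0.15 (GADD45B), and their 95% intervals together spanned -0.48 to 0.54. For CDKN1A the interaction was 0.14 ± 0.15 (interval -0.18 to 0.47), for PLK3 -0.01 ± 0.14 (-0.31 to 0.29) and for CDKN1B -0.13 ± 0.16 (-0.48 to 0.21). Departures from additive effects within these intervals were not detectable with 3 arrays a group.

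Other relatives of the members gave mixed values. PLK4, the kinase that starts centriole duplication, fell after both treatments (-0.56 ± 0.10, adjusted p = 0.00119) and after heat shock (-0.38 ± 0.10, adjusted p = 0.0229). PLK1, the main mitotic polo-like kinase, differed by -0.41 ± 0.15 after both treatments (adjusted p = 0.0691). SESN2, a stress-induced sestrin, had 6.93, 7.17 and 6.72 after both treatments, 6.59, 6.78 and 5.90 after heat shock and 6.47, 6.44 and 6.59 after wounding, against 6.03, 6.24 and 5.93 in control. It rose after both treatments (0.88 ± 0.19, 1.84-fold, adjusted p = 0.00452) and did not pass after heat shock (0.36 ± 0.19, adjusted p = 0.262) or wounding (0.44 ± 0.19, adjusted p = 0.331). GADD45G (3.24 ± 0.14 after both treatments, 2.90 ± 0.09 in control) and SESN3 (2.71 ± 0.19 after heat shock, 2.26 ± 0.10 in control) were called higher in those comparisons. Their levels lay under 3.95, the median in control of the fibroblast, endothelium and leukocyte markers, so these calls rest on low signal.

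Among 42 other measured p53 target genes, 12 rose and 4 fell after both treatments, 6 rose and 2 fell after heat shock, and 4 rose and 1 fell after wounding. Over all genes, 8.66% rose and 14.4% fell after both treatments, 4.93% and 7.92% after heat shock, and 2.27% and 1.31% after wounding. The median difference of these targets was 0.05, 0.07 and 0.07, against -0.01, -0.03 and -0.03 over all genes. The genes with the largest changes after both treatments were SERTAD1, a CDK4-binding cofactor (0.97 ± 0.09, adjusted p = 9.83e-06), SESN2, KITLG, the KIT ligand (-0.85 ± 0.10, adjusted p = 4.19e-05), and BBC3, the BH3-only killer PUMA (0.83 ± 0.11, adjusted p = 0.000212). BBC3 had 8.13, 8.36 and 7.89 after both treatments and 7.76, 8.02 and 7.73 after heat shock, against 7.69, 7.70 and 7.64 after wounding and 7.26, 7.43 and 7.20 in control. Its groups did not overlap with control in any treatment, and it rose after heat shock too (0.53 ± 0.11, adjusted p = 0.00863).

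TNFRSF10B, the TRAIL receptor DR5, rose after heat shock (0.41 ± 0.08) and after wounding (0.51 ± 0.08). EDA2R, a TNF receptor family member, rose after heat shock (0.41 ± 0.12) and was 0.56 ± 0.12 higher after heat shock than after wounding (adjusted p = 0.00869). TP53I3, a quinone oxidoreductase, had 9.33, 9.49 and 9.51 after heat shock and 10.10, 10.13 and 10.16 after wounding, against 9.75, 9.77 and 9.74 in control. It was called in opposite directions by the single treatments, -0.31 ± 0.09 after heat shock and 0.38 ± 0.09 after wounding, and differed between them by -0.69 ± 0.09 (adjusted p = 0.000426). SUSD6 rose after wounding (0.38 ± 0.07) and was lower after heat shock than after wounding (-0.56 ± 0.07, adjusted p = 0.000435). GDF15, a stress-induced cytokine, averaged 10.46 after heat shock and 9.64 after wounding (0.82 ± 0.19, adjusted p = 0.0173). The nuclease gene AEN was 0.55 ± 0.10 higher after both treatments than after wounding (adjusted p = 0.00372). Both treatments set against heat shock gave a higher LIF, a cytokine of the interleukin 6 family (0.59 ± 0.11, adjusted p = 0.0074), and a lower CCNG1, cyclin G1 (-0.44 ± 0.09, adjusted p = 0.016). BAX, the apoptosis effector, differed by 0.05, 0.01 and -0.14 from control after both treatments, heat shock and wounding, and passed in none.

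**Figure D4:**
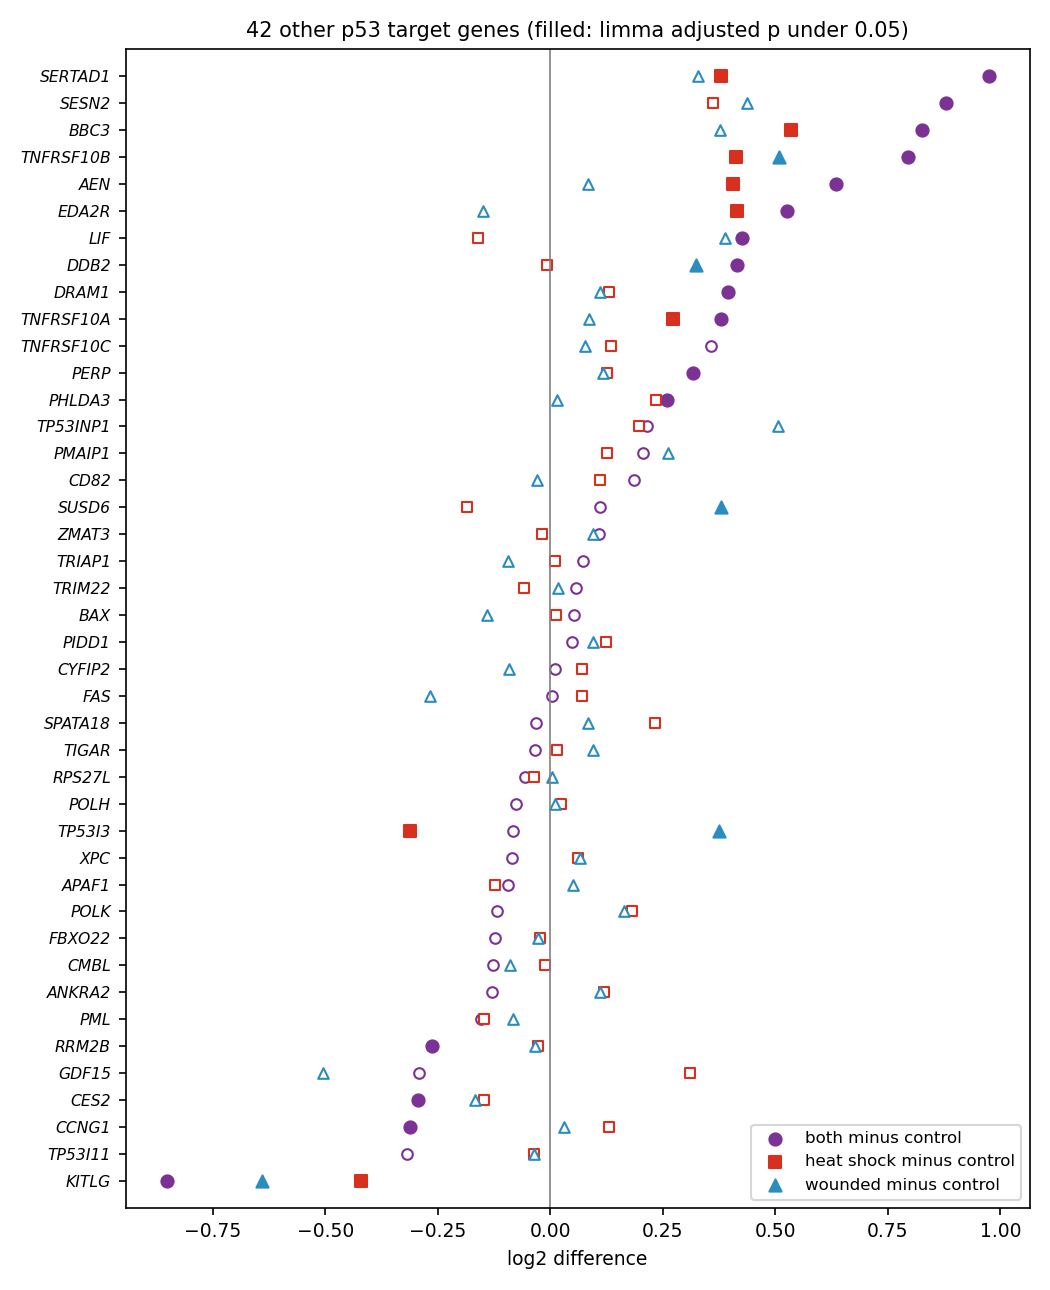
Log2 difference from control (x axis) of 42 other p53 target genes (y axis, sorted by the doubly treated group) after both treatments (circles), heat shock (squares) and wounding (triangles); filled symbols passed with limma. SERTAD1 (0.97) is at the top and KITLG (-0.85) at the bottom, with 12 filled circles right of 0 and 4 left of it.

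Of 24 measured regulators of p53, 3 rose and 7 fell after both treatments, 2 rose and 3 fell after heat shock, and 2 rose and 0 fell after wounding. Over all genes, 8.66% rose and 14.4% fell, 4.93% and 7.92%, and 2.27% and 1.31% in the same comparisons. Counts of 2 or 3 of 24, as after heat shock and wounding, rest on few genes. PPP1R13L, the p53 inhibitor iASPP, had 7.43, 7.75 and 7.20 after both treatments, 7.08, 6.98 and 7.09 after heat shock and 6.69, 6.86 and 6.62 after wounding, against 6.02, 6.21 and 6.07 in control. It rose by 1.36 ± 0.12 (2.57-fold, adjusted p = 5.39e-06), 0.95 ± 0.12 (adjusted p = 0.000268) and 0.62 ± 0.12 (adjusted p = 0.0106). DYRK2, a kinase that phosphorylates p53, rose after both treatments (0.68 ± 0.08) and after heat shock (0.36 ± 0.08). The checkpoint kinase genes CHEK1 and CHEK2 fell after both treatments (-0.63 ± 0.08 and -0.49 ± 0.10), CHEK1 after heat shock also (-0.42 ± 0.08), as did the acetyltransferase EP300 (-0.35 ± 0.08). SIRT1, a deacetylase of p53, rose after wounding (0.39 ± 0.08) and was lower after heat shock than after wounding (-0.42 ± 0.08, adjusted p = 0.00318), as was TP53RK, a kinase of p53 (-0.30 ± 0.07). ATM, the DNA damage kinase, was lower after both treatments than after wounding (-0.43 ± 0.10, adjusted p = 0.0103).

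A list of 14 cell cycle genes held cyclins and CDKs with RB1, E2F1 and the phosphatase gene CDC25A. After both treatments 1 rose and 9 fell, where 8.66% of all genes rose and 14.4% fell. After heat shock 1 rose and 5 fell (4.93% and 7.92% of all genes), and after wounding 0 rose and 2 fell (2.27% and 1.31%). The gene that rose was CDK6 in both comparisons (0.33 ± 0.07 and 0.31 ± 0.07), and CCND1, CCND2, E2F1 and RB1 were called in none of the 3. CCNE2, a cyclin E, had 5.75, 5.27 and 6.09 after both treatments, against 7.37, 7.25 and 7.54 in control (-1.68 ± 0.17, adjusted p = 1.78e-05). The other cyclin E gene, CCNE1, fell by 1.01 ± 0.08 after both treatments (adjusted p = 4.13e-06), by 0.88 ± 0.08 after heat shock and by 0.37 ± 0.08 after wounding (adjusted p = 0.0345). CCNA2 and CCNB1, cyclins of S phase and mitosis, fell after both treatments (-0.64 ± 0.07 and -0.56 ± 0.07) and after heat shock (-0.38 ± 0.07 and -0.35 ± 0.07). CDC25A fell after both treatments (-0.58 ± 0.10) and after wounding (-0.52 ± 0.10, adjusted p = 0.0101), and not after heat shock (-0.15 ± 0.10, adjusted p = 0.402). CCND3 fell after both treatments (-0.60 ± 0.10), and CDK6 was higher after heat shock than after wounding (0.30 ± 0.07, adjusted p = 0.0128). SKP2, the ubiquitin ligase subunit that directs p27 to destruction, had 6.02, 5.79 and 5.84 after both treatments, 6.39, 6.30 and 6.25 after heat shock and 6.36, 6.23 and 6.35 after wounding, against 6.82, 6.71 and 6.83 in control. It fell by -0.91 ± 0.08 (0.534-fold, adjusted p = 4.04e-06), -0.48 ± 0.08 (adjusted p = 0.00148) and -0.47 ± 0.08 (adjusted p = 0.00377). It was the only 1 of the 8 genes of p27 control called against control in these 3 comparisons. MYC, FOXO1 and FOXO3 were lower after heat shock than after wounding, by -0.53 ± 0.08, -0.34 ± 0.09 and -0.41 ± 0.11.

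Of 5 measured partners of GADD45 proteins, PCNA, MAP2K4 and MAP2K6 fell after both treatments (-0.52 ± 0.06, -0.27 ± 0.06 and -0.32 ± 0.09), and PCNA and MAP2K4 after heat shock (-0.39 ± 0.06 and -0.23 ± 0.06). MAP3K4, the kinase that GADD45 proteins activate, was 0.53 ± 0.11 higher after both treatments than after heat shock (adjusted p = 0.0132) and -0.61 ± 0.11 lower after heat shock than after wounding (adjusted p = 0.00292). Against control it did not pass.

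Over the 12 arrays, the genes with the pattern most like that of CDKN1A were SOX9 (r = 0.99), PTGER2 (0.99) and COBL (0.98), and for PLK3 they were PRELID3A (0.99), EEIG1 (0.98) and RRAD (0.98). GADD45B was most like TCEAL1 (0.98), CMTM3 (0.97) and FERMT1 (0.97), and GADD45A most like EFNA1, NABP1 and TP53BP2 (0.94 to 0.93). PLK2 was most like CAVIN2, BAAT and LGR4 (0.97 each). MDM4 was most like NAB2, HSPA4 and ME1 (0.97 to 0.96), and MDM2 most like CCL20, FBXW10B and MRRF (0.95 to 0.93). CDKN1B was most like ZBTB41, NUP37 and TMEM128 (0.97 to 0.96), and SESN1 most like ZNF565, FGFBP1 and TDRP (0.93 each). These are the 3 highest Pearson r among 18132 genes over arrays that share the group differences, given as a description.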

How the data were processed

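Each array took 100 ng of RNA. The authors deposited log2 levels per probe set. The submitters' processing notes name RMA and Affymetrix Expression Console. RMA corrects background and sets all arrays to 1 distribution, which can compress differences at low signal and hide a global shift. The program's version is not given in the sources used here, and no detection p was used.

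Of 49293 probe sets, 1 lacked a value and was dropped. The annotation of the platform gave 1 symbol to 44987 others, several to 1832 and listed none for 2473. Each of 18132 genes was read through its probe set with the highest mean. The 4 group means were fitted jointly over the 12 arrays (limma 3.58.1, R 4.3.3; 8 residual degrees of freedom), with moderated variances. Calls used adjusted p under 0.05 (Benjamini-Hochberg over all genes) in each of 7 comparisons, the interaction included. The test was checked on simulated data. Figures used matplotlib 3.10.9.

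The members, the gene lists and the alternatives were chosen with earlier results of these data known. Named were all 9 members, up to 4 called genes of a list with the largest change in each comparison (each given for at least 1 such comparison), every other CDK inhibitor and relative of the members, and the 3 genes most like each member. BAX and the genes given only to place a count or a marker were added after their values were seen. Some listed genes were not analysed here. Replicate numbers were not treated as pairing the arrays, since no label says that they do. The replicate codes in the sample descriptions are the same in every group, with no meaning given. Of 18 pairs with the same number in different groups, 6 had deviations from their group means that correlated over 0.1 (range -0.187 to 0.234). Pairs with different numbers ranged from -0.194 to 0.243, and 8 of 12 arrays correlated best with arrays of their own number. Whether the arrays share batches cannot be told from these values, and the main p-values make no allowance for it.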

Additional observations from a re-analysis of the deposited data

How the results depend on the processing

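Counts are members called of 9 unless all genes are named. Leaving out each array in turn gave 2 to 4 members for heat shock against control, 1 to 2 for wounding against control, 6 to 8 for both treatments against control, 2 to 6 for both against wounding, 2 to 4 for both against heat shock, 2 to 3 for heat shock against wounding and 0 to 0 for the interaction. Over all genes the same omissions gave 1438 to 2594 called for heat shock against control and 306 to 722 for wounding against control. They gave 3088 to 4400 for both against control, 1649 to 2936 for both against wounding and 498 to 790 for both against heat shock. Heat shock against wounding gave 1182 to 2174 and the interaction 1 to 2. Calls over all genes thus varied too, and are not given for the other settings. For wounding against control, where the count was 1, averaging the probe sets of a gene gave 0. Keeping only genes at or above the median level, which leaves out PLK3, gave 3, an intensity trend in eBayes gave 3, and a block by the S2 or S3 code gave 3, adding CDKN1A (adjusted p = 0.0424) and PLK2 (adjusted p = 0.047). For both against wounding, where the count was 5, cyclic loess gave 3 and averaging probe sets gave 3. For heat shock against wounding the intensity trend gave 4, against 2. With the replicate number as a block (replicate block) the counts were 3, 1, 8, 6, 3, 3 and 0 for heat shock, wounding and both against control, both against wounding, both against heat shock, heat shock against wounding and the interaction. MDM2 was the gene added, and 8 of 12 arrays correlated best with arrays of their own number. Quantile normalization again changed no call of a member. Among other probe sets, the sign turned for MDM4 after heat shock (-0.10) and after both treatments (-0.11) and for GADD45B after wounding (-0.13), none of them called. In control these probe sets read 4.39, 5.55 and 4.22 in turn. The first and the last lay under 4.66, the upper quartile there of the fibroblast, endothelium and leukocyte markers, and so rest on low signal. Where the gene itself was not called, signs also differed among probe sets for SESN1 after both treatments (-0.12 to 0.17) and heat shock (-0.05 to 0.10), CDKN1B after wounding (-0.07 to 0.10), PLK2 after heat shock (-0.11 to 0.09) and MDM2 after wounding (-0.24 to 0.39). The causes of these shifts were not tested. Precision is limited by 3 arrays a group.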

Other observations

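Within the heat shocked group, replicate 3 was the lowest array for 9 of the 9 members, and replicate 2 the highest for 8 of 9. Over all 18132 genes the same arrays were lowest for 40.6% and highest for 35.9%. SESN1 had 6.53, 6.81 and 6.13 in that group, the widest spread of a member (SD 0.34). Without heat shock replicate 3, MDM2 passed against control. In the other groups no array was lowest for more than 5 of the 9 members. The sample descriptions carry the codes S2a, S2b and S3a for replicates 1, 2 and 3 of every group, with no meaning given. Replicates 1 and 2 share S2, and whether they came from separate cultures is not stated, so the 3 arrays of a group may hold fewer than 3 independent samples. Replicate 3 was the lowest array in all 4 groups for CDKN1A and SESN1. The part of this array in the results beyond the values without it was not tested.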
